A study of Mus musculus with 4 samples.

Results

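The genes described here are 8 genes of the endoplasmic reticulum that fold secretory proteins or belong to the unfolded protein response, found as the rows with the symbols Hspa5, Hsp90b1, Calr, Pdia4, Sdf2l1, Dnajb9, Herpud1 and Xbp1 among 32589 listed features. All 8 had counts, and all 8 passed the filter on low counts in every comparison with TMM scaling. The sections came from brains of mice inoculated with tumour and then resected, at day 11. The series names a condition treated with hydrogel and one without it, read here as TREAT and Vehicle, and both share the inoculation and the resection. The labels give no strain, age or tumour line and nothing more on the hydrogel, so the model is limited to what these sections hold. Transcripts were read in fixed, paraffin-embedded tissue through hybridised probe pairs on barcoded spots. Each group held 2 capture areas with 2 separate pieces of tissue apiece. They are called Vehicle 1+4, Vehicle 2+3, TREAT 1+4 and TREAT 2+3. The series states 4 animals and does not tie pieces to animals. A p-value here therefore measures the spread between capture areas, which may be partly technical.

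Proteins that enter the secretory pathway are folded in the lumen of the endoplasmic reticulum. Hspa5 (BiP) is the Hsp70 chaperone there, Hsp90b1 (Grp94) the Hsp90 chaperone, Calr (calreticulin) a lectin chaperone that binds sugars of new glycoproteins, and Pdia4 a disulfide isomerase. Sdf2l1 works in a complex with Hspa5, Dnajb9 (ERdj4) is a J-domain cochaperone of Hspa5, and Herpud1 is a membrane protein of the machinery that sends misfolded proteins back to the cytosol for degradation. Unfolded proteins activate the sensors Ire1, Perk and Atf6. Ire1 splices the Xbp1 messenger, and the spliced form, Atf6 and the Atf4 factor downstream of Perk raise the transcription of such genes. The probe counts give total Xbp1 transcript, and splicing was not measured.

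In the mm10 assembly (GRCm38.p6) the genes lie at chr2:34772090-34776529 (Hspa5), chr10:86690841-86705444 (Hsp90b1), chr8:84842088-84846931 (Calr), chr6:47796141-47813512 (Pdia4), chr16:17130138-17132383 (Sdf2l1), chr12:44205897-44210068 (Dnajb9), chr8:94386429-94395371 (Herpud1) and chr11:5520641-5525993 (Xbp1). Their promoters were read from RefSeq, where all 8 matched by symbol. Each window ran from 250 bases before the annotated start to 50 bases after it, and was searched on both strands for the ER stress element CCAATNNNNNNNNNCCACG, its second form (ERSE-II), the Xbp1 and Atf6 site core TGACGTGG and the Atf4-type element TTGCATCA. The first element was present in 3 of the 8 windows, those of Hspa5, Hsp90b1 and Calr, against 0.119% of all 32851 promoter windows. The second form was present in the Herpud1 window, against 0.0365% of all windows, and so was the Atf4-type element, against 0.895%. TGACGTGG was in none of the 8 windows and in 0.676% of all. The windows of Pdia4, Sdf2l1, Dnajb9 and Xbp1 held none of these letters. A match describes the letters only, and binding was not measured.

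The 250 bases before the start of 4 members are shown because their windows held an element. Pdia4 and Sdf2l1, which like Hspa5, Hsp90b1 and Calr were higher in the core (the spots led by proliferation genes), held none, and Herpud1 was lower there. Capitals mark the elements found, on either strand, and each line reads 5′ to 3′ on the strand of its gene. The stretches lie at chr2:34771840-34772089 (plus strand), chr10:86705445-86705694 (minus strand), chr8:84846932-84847181 (minus strand) and chr8:94386179-94386428 (plus strand).
Hspa5: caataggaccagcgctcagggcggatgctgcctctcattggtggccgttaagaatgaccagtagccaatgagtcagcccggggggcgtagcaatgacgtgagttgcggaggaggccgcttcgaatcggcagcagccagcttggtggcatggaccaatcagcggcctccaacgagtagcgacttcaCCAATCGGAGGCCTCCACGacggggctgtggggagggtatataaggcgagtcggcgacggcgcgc
Hsp90b1: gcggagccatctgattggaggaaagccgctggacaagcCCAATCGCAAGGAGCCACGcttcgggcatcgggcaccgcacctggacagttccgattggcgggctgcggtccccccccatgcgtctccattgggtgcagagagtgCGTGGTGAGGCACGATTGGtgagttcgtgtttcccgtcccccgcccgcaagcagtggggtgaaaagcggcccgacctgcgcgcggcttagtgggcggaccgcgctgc
Calr: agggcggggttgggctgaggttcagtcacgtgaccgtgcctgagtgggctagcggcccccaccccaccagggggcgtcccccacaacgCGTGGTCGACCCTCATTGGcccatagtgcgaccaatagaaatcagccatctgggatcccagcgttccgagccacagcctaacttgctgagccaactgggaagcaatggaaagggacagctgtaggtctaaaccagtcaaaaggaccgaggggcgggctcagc
Herpud1: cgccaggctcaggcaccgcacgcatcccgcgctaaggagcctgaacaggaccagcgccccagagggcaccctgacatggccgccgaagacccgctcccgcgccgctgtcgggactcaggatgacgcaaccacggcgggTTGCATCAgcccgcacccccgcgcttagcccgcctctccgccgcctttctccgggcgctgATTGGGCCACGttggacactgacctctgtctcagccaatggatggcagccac
The Hspa5 element began 65 bases before the start. Hsp90b1 held 2 copies, from 212 and 107 bases before the start and on opposite strands, and Calr held 1 on the reverse strand, from 162 bases before it. In Herpud1 the Atf4-type element began 112 and the second ER stress form 52 bases before the start.

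Spots over tissue numbered 3013 to 3488 per area, and 13003 of 13046 had the minimum of 500 UMIs (unique molecules counted) and were kept. The median spot was deeper in TREAT, with 12159 and 14909 UMIs, than in Vehicle, with 7327 and 8329. Spots were clustered without the 8 members and without the pathway genes described below, so that levels across clusters do not rest on those genes. The core is clusters 0 and 6, each matched by 4 proliferation genes among its 50 leading genes. Cluster 0 held 950 and 1315 Vehicle spots and no TREAT spot, while cluster 6 held 193 and 557 TREAT spots and 1 Vehicle spot. Brain is the 12 clusters matched by lists for the cortex, hippocampus, striatum, thalamus, hypothalamus, midbrain or white matter, with 1693 to 2817 spots per area. In brain the summed cortical, hippocampal and white matter lists were far above their core levels in every area, for example 11399 to 13754 CPM of white matter genes against 924 to 1131. CPM is the UMIs of a gene per 1000000 UMIs of the summed spots. Cluster 7, with 69 to 245 spots per area, was led by immunoglobulin genes and matched by 4 reactive glia genes, and is called by its number. Barcodes mark array positions, and 1825 of them lay over tissue in all 4 areas.

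The chaperones were high throughout the core. Across the 4 areas, Hspa5 was 2.62 to 3.26 times, Hsp90b1 3.34 to 5.07 times, Pdia4 3.93 to 6.30 times and Calr 2.00 to 2.71 times its level in the brain of the same area. Sdf2l1 was 2.09 to 2.92 times its brain level. Xbp1 was 1.14 to 1.37 times as high. Herpud1 and Dnajb9 went the other way, at 0.46 to 0.88 and 0.55 to 0.85 of their brain levels.

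**Figure D1:**
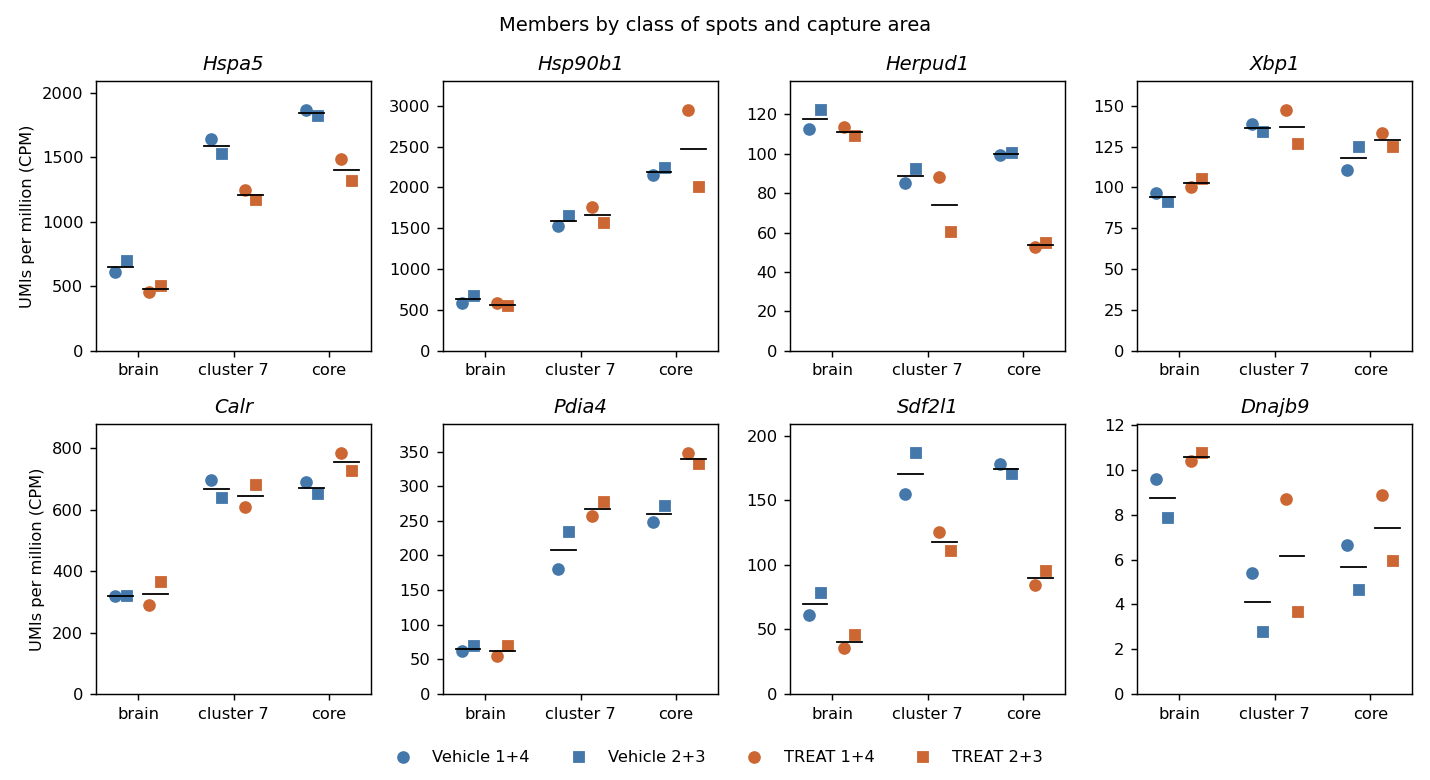
CPM of each of the 8 genes in brain, cluster 7 and core, with 1 point per capture area (blue Vehicle, orange TREAT) and a bar at the group mean of 2 areas. For Hspa5, Hsp90b1, Calr, Pdia4 and Sdf2l1 every core point lies above every brain point of the same gene, and for Herpud1 and Dnajb9 each core point lies below the brain point of its own area.

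Hspa5 measured 1868 and 1824 CPM in the 2 Vehicle cores and 1488 and 1316 CPM in the 2 TREAT cores. In brain it measured 608 and 693 CPM in Vehicle and 457 and 502 CPM in TREAT. No core value overlapped a brain value. With the area as a block, edgeR's quasi-likelihood test gave a log2 fold change of core over brain of 1.44 ± 0.13 (SE, adjusted p = 4.86e-08).

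For Hsp90b1 the cores held 2147 and 2233 CPM in Vehicle and 2949 and 2000 CPM in TREAT, and the brain 589.5 and 669 CPM in Vehicle and 581 and 547.5 CPM in TREAT. The TREAT 1+4 core stood above the other 3. The log2 fold change of core over brain was 1.87 ± 0.14 (edgeR adjusted p = 6.34e-09).

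Pdia4 had the largest fold change of the 8. Its core levels were 248.5 and 271 CPM in Vehicle and 348 and 332 CPM in TREAT, against 61.3, 69.0, 55.2 and 69.1 CPM in brain in the same order. All 4 areas showed it, and the log2 fold change was 2.14 ± 0.14 (edgeR adjusted p = 1.28e-09). Calr, the lectin chaperone, held 691, 652, 785 and 727 CPM in the cores and 319, 321, 289 and 364 CPM in brain (log2 fold change 1.06 ± 0.12, edgeR adjusted p = 7.04e-07). Sdf2l1, the partner of Hspa5, held 178 and 171 CPM in the Vehicle cores and 84.2 and 95.1 CPM in the TREAT cores. Brain held 61.2 and 78.6 CPM of it in Vehicle and 35.3 and 45.5 CPM in TREAT, and its log2 fold change was 1.17 ± 0.15 (edgeR adjusted p = 3.39e-06).

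Herpud1 differed from the chaperones in direction. Its cores held 99.4 and 100.3 CPM in Vehicle and 52.5 and 54.7 CPM in TREAT, while brain held 113 and 122 CPM in Vehicle and 114 and 109 CPM in TREAT. Every core lay below its own brain, by less in Vehicle than in TREAT. The log2 fold change of core over brain was -0.70 ± 0.17 (edgeR adjusted p = 0.00198).

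Dnajb9 was counted least, with 56 to 145 UMIs per core and 89 to 442 UMIs per brain sum. Its levels were 6.65, 4.64, 8.86 and 5.94 CPM in the cores and 9.61, 7.86, 10.4 and 10.7 CPM in brain, so that the ranges overlapped between areas but each core was below its own brain. The log2 fold change was -0.68 ± 0.20 (edgeR adjusted p = 0.00648). Xbp1, the transcription factor, differed least, with 110, 125, 133 and 124 CPM in the cores and 96.7, 91.2, 100.5 and 105 CPM in brain. Its log2 fold change of 0.24 ± 0.10 just passed the threshold of 0.05 (edgeR adjusted p = 0.0453). That call was lost without Vehicle 1+4, Vehicle 2+3 or TREAT 1+4 (edgeR adjusted p = 0.0912, 0.21 and 0.109), when the spots were clustered on all genes (0.127), with spots of at least 1000 UMIs (0.101) and with DESeq2's size factors in edgeR (0.0505). It held in 8 of 14 alternatives.

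Thus 6 members were called higher and 2 lower in the core, where 34.8% of all 19023 genes tested were called higher and 34.1% lower. The median log2 fold change was 1.11 over the 8 members and 0.10 over all genes tested. In bulk sums of spots, fewer cells of a type and less RNA per cell cannot be told apart.

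In the pieces that had a core, the median cluster 7 spot lay 1 to 4.36 spot spacings from it, against 10 to 16.7 for brain spots. In cluster 7 the same 6 members were called higher and the same 2 lower than in brain, against 27.4% of genes called higher and 28.5% lower. Hspa5 held 1644 and 1526 CPM in Vehicle and 1247 and 1170 CPM in TREAT (log2 fold change over brain 1.11 ± 0.13, edgeR adjusted p = 1.81e-06). These values lay between brain and core in every area. Pdia4 had a log2 fold change of 1.70 ± 0.14, Sdf2l1 of 1.25 ± 0.15, Hsp90b1 of 1.24 ± 0.14, Calr of 0.82 ± 0.12 and Xbp1 of 0.27 ± 0.10. The Xbp1 call held in 5 of 14 alternatives and was lost without any one of the 4 areas (edgeR adjusted p from 0.0572 to 0.222). Herpud1 was lower by a log2 fold change of -0.69 ± 0.18 and Dnajb9 of -1.10 ± 0.26, the latter on only 4 to 42 UMIs per area. In TREAT 1+4, 159 of the cluster 7 spots sat in the piece that had no core spot, and Hspa5 there was 1315 CPM. With a finer clustering (resolution 1.0), another set of spots was led by these genes. In that class 2 members were called higher and 0 lower than in brain, against 3445 and 4132 of 17892 genes. Plasma cell genes, which mark cells rich in endoplasmic reticulum, summed to 436 to 3380 CPM in cluster 7 against 64.4 to 92.6 CPM in the core and 59.7 to 373 CPM in brain, and none of the 13 was at 0. Macrophage genes summed to 4773 to 5947 CPM there and to 1636 to 1972 CPM in the core. Proliferation genes, which led the core, summed to 1714 to 2141 CPM in cluster 7. They summed to 3048 to 3494 CPM in the core and 75.7 to 267 CPM in brain. The part of the cells behind these lists, core-type cells included, in the cluster 7 levels was not tested.

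The change from core to brain took place over a few spots. Within 1.5 spot spacings outside the core edge Hspa5 still held 1848 and 1808 CPM in Vehicle and 1504 and 1327 CPM in TREAT. Of the spots in this ring 63.9% and 70.2% in Vehicle and 70.6% and 91.9% in TREAT belonged to cluster 7, and 15.2% to 49.4% of those in the next ring. Between 1.5 and 2.5 spacings it held 1023 and 1217 CPM in Vehicle and 832 and 881 CPM in TREAT. From 4.5 to 8.5 spacings it held 612 and 742 CPM in Vehicle and 461 and 476 CPM in TREAT, close to the brain sums. Inside the core the level changed less. From over 4.5 spacings inside to the last 1.5 spacings before the edge it went from 1813 to 2052 CPM in Vehicle 1+4, from 1839 to 1922 in Vehicle 2+3, from 1494 to 1483 in TREAT 1+4 and from 1265 to 1475 in TREAT 2+3. In the first outer ring plasma cell genes summed to 2058 and 2960 CPM in Vehicle and 1211 and 140 CPM in TREAT. The proliferation genes fell in the same interval, from 2459 to 2868 CPM in the first outer ring to 99.3 to 263 CPM at 4.5 to 8.5 spacings, and the part of either list in the profile was not tested. Herpud1 ran against this, from 70.3 CPM in the first outer ring to 106 CPM at 4.5 to 8.5 spacings in TREAT 1+4 and from 47.7 to 118 CPM in TREAT 2+3. In Vehicle 1+4 it went from 90.9 to 128 CPM and in Vehicle 2+3 from 87.3 to 126 CPM. In the farthest bin Herpud1 was lower again, at 97.2 and 110 CPM in Vehicle and 93.3 and 82.8 CPM in TREAT. Over 4.5 spacings inside the core it held 101 and 96.4 CPM in Vehicle and 53.6 and 58.5 CPM in TREAT. The Herpud1 levels of bins inside and outside the core therefore overlapped in both Vehicle areas, and the profile there held no steady rise away from the core.

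**Figure D2:**
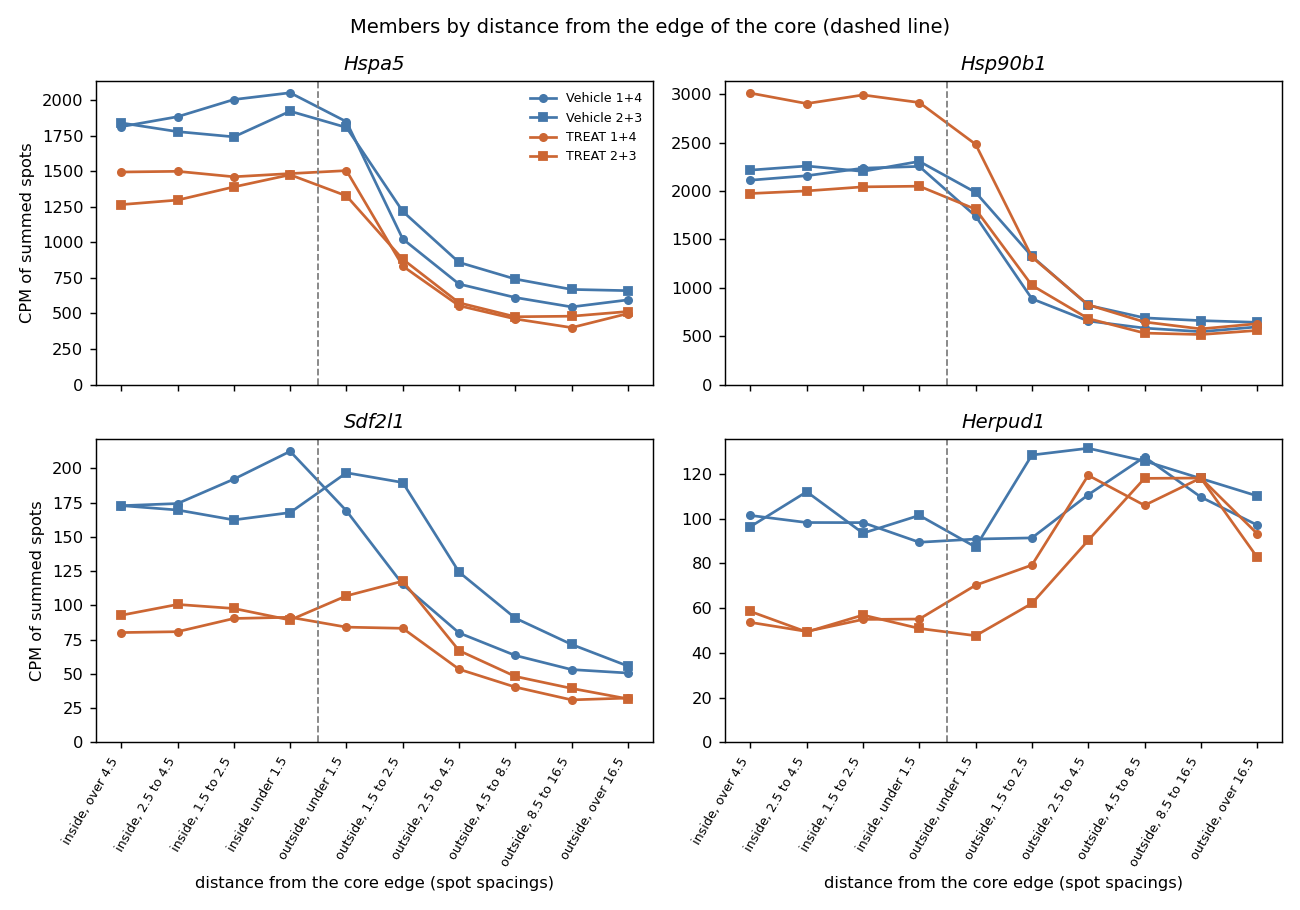
CPM of Hspa5, Hsp90b1, Sdf2l1 and Herpud1 in summed spots by distance from the core edge, in spot spacings, with 1 line per capture area and the dashed line at the edge. Pieces with under 20 core spots and bins with under 20 spots are left out; Hspa5 stays at 1265 CPM or more inside the core of each area and falls within 4.5 spacings outside it, while Herpud1 in both TREAT areas is higher in every bin beyond 1.5 spacings outside than in any bin inside.

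**Figure D3:**
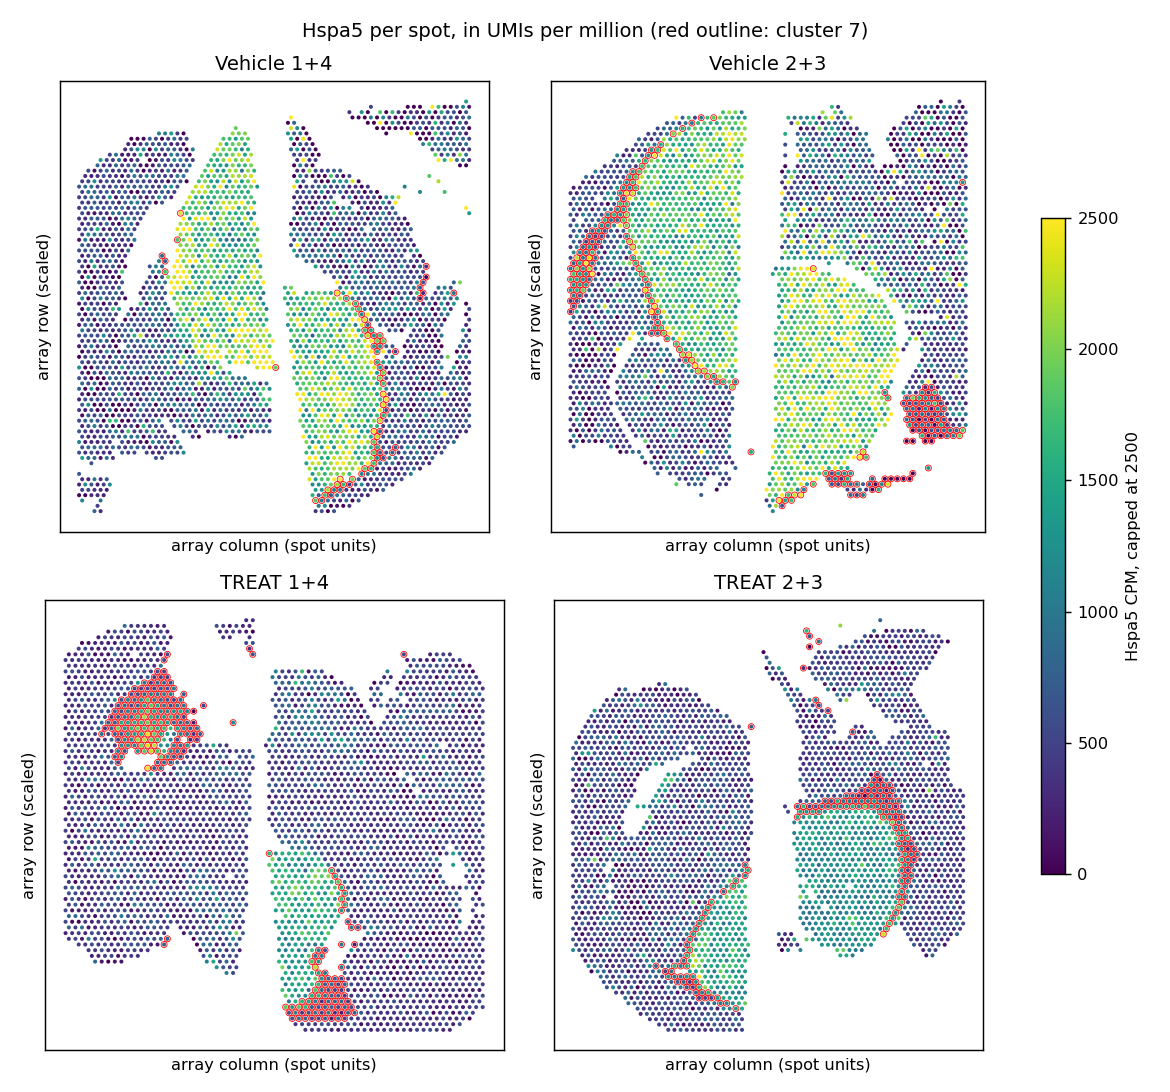
Hspa5 in each kept spot of the 4 areas, in CPM of that spot with the colour capped at the top of the scale, placed by array column and row. Spots outlined in red belong to cluster 7. The high spots form the core masses, except in the piece of TREAT 1+4 that has no core spot.

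Across all 17 clusters the order of Hspa5 was cluster 0 at a mean of 1846 CPM, cluster 16 at 1716, cluster 6 at 1402 and cluster 7 at 1397, followed by the other clusters from 746 CPM down to 440 CPM in a hippocampal cluster. Clusters 16, 6 and 7 did not differ beyond their ranges over areas (1329 to 2103, 1316 to 1488 and 1170 to 1644 CPM). Cluster 0, at 1824 to 1868 CPM, lay within the range of cluster 16. The mean of cluster 0 rests on Vehicle areas and that of cluster 6 on TREAT areas, so cluster and group cannot be told apart there. Cluster 16, matched by choroid plexus and ependyma genes, held 27 and 22 spots in the 2 areas with enough of them, and 3151 and 1591 CPM of proliferation genes, with 2687 and 2445 CPM of plasma cell genes; the part of such cells in its levels was not tested. Hsp90b1 (2166 CPM), Calr (728.5 CPM) and Pdia4 (295 CPM) were also at core levels in it. Herpud1 was ordered otherwise. Its highest means were in 3 clusters matched by thalamic genes, at 193 (1 area), 176 and 140 CPM, and its lowest was in cluster 6, at 53.6 CPM. Dnajb9 ran from 13.7 CPM in a thalamic cluster to 4.65 CPM in cluster 16, where 1 of the 2 sums held no count of it.

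**Figure D4:**
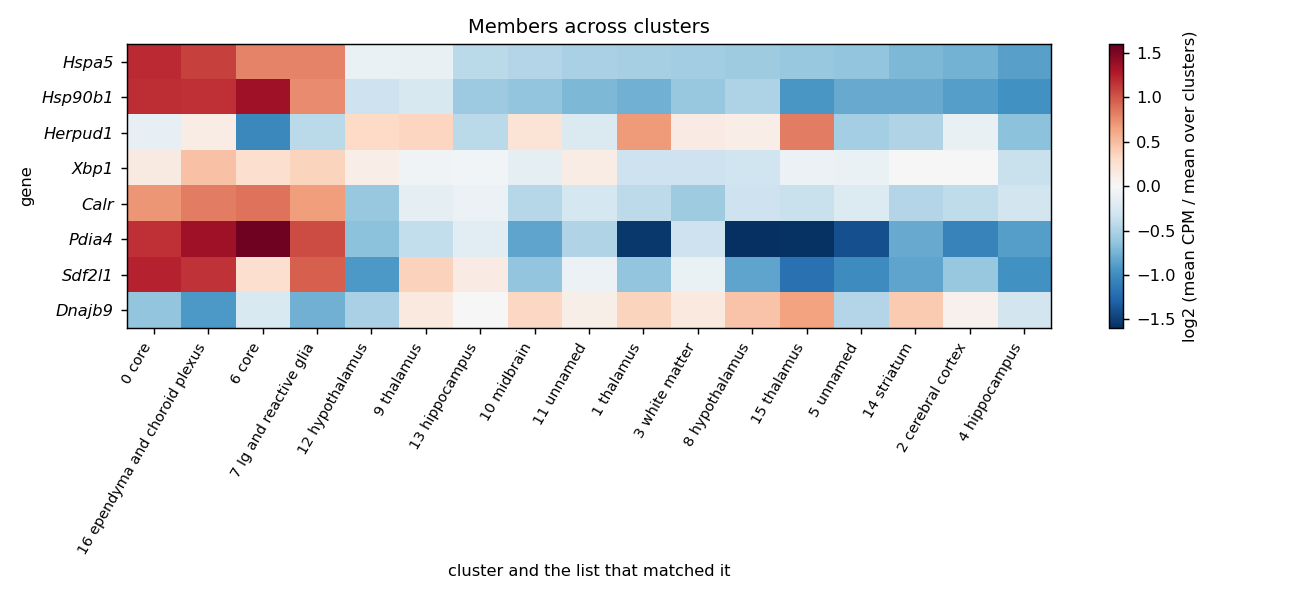
Mean CPM of each gene in each of 17 clusters, as log2 of the ratio to that gene's mean over clusters, with clusters ordered by Hspa5. The 4 clusters at the left (0, 16, 6 and 7) are red for Hspa5, Hsp90b1, Calr, Pdia4 and Sdf2l1; Herpud1 and Dnajb9 do not follow that order.

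Over 54 sums of a cluster in an area (at least 20 spots each), log2(CPM + 1) of Hspa5 correlated with Hsp90b1 (Pearson r = 0.94), Calr (0.83), Sdf2l1 (0.80), Pdia4 (0.62) and Xbp1 (0.61). It ran against Dnajb9 (-0.47) and was near 0 with Herpud1 (-0.06). These sums share areas and depth and mix core with brain clusters, so the values are a description. Over single spots the correlation (rho) of Hspa5 with Hsp90b1 was 0.17 to 0.29 in the core and 0.09 to 0.16 in brain. In the spots led by immunoglobulin genes it was 0.55 to 0.62. In the core rho of Hspa5 was 0.07 to 0.23 with Calr and 0.08 to 0.13 with Sdf2l1. With Pdia4 it was 0.03 to 0.12 and with Xbp1 0.02 to 0.04. Single spots hold few UMIs of some members, so rho and r cannot be compared directly. The genes outside the pathway lists most like the mean of the 8 members were Txn1, a thioredoxin (r = 0.932), followed by Hist1h2ah, Hist1h1a, Hist1h2bl, Hist1h3h, Hist1h1e, C2, Hist1h3i, Cdc20 and Dlgap5 (0.919), among 11171 candidates. Hist1h2ah, Hist1h2bl, Hist1h3h and Hist1h3i belong to families of near-identical copies, and counts may be split between the copies. Cdc20 is on the proliferation list that matched the core. Herpud1 and Dnajb9 ran against the mean of the other members (Pearson r = -0.25 and -0.38), so the mean of the 8 does not stand for them.

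The wider pathway was counted from lists that include the members. The counts of core against brain compare with 34.8% of all 19023 genes tested called higher and 34.1% called lower. Of 20 chaperones and cochaperones of the endoplasmic reticulum, 17 were called higher and 2 lower in the core than in brain, with a median log2 fold change of 1.19. Serpinh1, the collagen chaperone, rose by 3.31 ± 0.19, Fkbp11 by 3.44 ± 0.14 and Creld2 by 2.46 ± 0.13. Of 13 oxidoreductases, 10 were higher and 1 lower (median 1.43). P4hb, a disulfide isomerase, rose by 2.71 ± 0.13, the peroxiredoxin Prdx4 by 2.72 ± 0.13 and the oxidase Ero1l by 1.96 ± 0.11. Of 23 genes of translocation and early secretion, 21 were higher and 1 lower (median 1.04), among them the retrieval receptor Kdelr3 (3.51 ± 0.17), the translocon-associated Ssr4 (2.03 ± 0.12) and the translocon subunit Sec61a1 (1.77 ± 0.10). These 9 genes had edgeR adjusted p-values of 3.69e-10 or below.

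Sensors and factors were also higher. Of 12, 8 were called higher and 1 lower (median 0.67), with Ern1, which encodes Ire1, up by 2.92 ± 0.13, Atf4 by 1.82 ± 0.17 and Ddit3 (Chop), listed under 2 identifiers of which the first was read, by 1.41 ± 0.13. Of 16 Perk and Atf4 targets, 14 were higher and 1 lower (median 1.71). Trib3, a pseudokinase, had 129 to 171 CPM in the cores and 2.14 to 7.06 CPM in brain (log2 fold change 5.24 ± 0.31), Cebpb rose by 3.10 ± 0.19 and Sesn2 by 2.60 ± 0.15. These 6 genes had edgeR adjusted p-values of 8.38e-08 or below.

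The degradation list, to which Herpud1 belongs, was split. Of 18 genes, 7 were called higher and 6 lower, with a median of 0.03 against 0.10 over all genes. These counts were near the shares over all genes, 34.8% higher and 34.1% lower. Edem1 and Edem2, which act on misfolded glycoproteins, rose by 1.91 ± 0.12 and 1.57 ± 0.11, and Aup1 by 1.13 ± 0.10. Cytosolic heat shock genes were split as well, with 8 of 14 higher and 5 lower (median 0.30). Hspa8, the constitutive cytosolic Hsp70, fell by 1.18 on the log2 scale (SE 0.12) and the small heat shock gene Hspb1 fell by 1.91 (SE 0.18), while Hspa4 rose by 0.91 ± 0.10. Of 10 mitochondrial chaperones and proteases, 7 were higher and 0 lower (median 0.62), with Hspd1 up by 2.17 ± 0.12, Hspa9 by 2.15 ± 0.12 and Grpel1 by 1.74 ± 0.11. These 9 genes had edgeR adjusted p-values of 1.11e-06 or below.

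TREAT and Vehicle were first compared over the whole tissue, to ask how the members differed between the conditions without regard to place. Hspa5 held 1389 and 1528 CPM in Vehicle and 652 and 868 CPM in TREAT, and the groups did not overlap (log2 fold change -1.27 ± 0.32, edgeR adjusted p = 0.0495). Sdf2l1 held 133 and 149 CPM in Vehicle and 49.3 and 66.9 CPM in TREAT, again without overlap (-1.62 ± 0.26, edgeR adjusted p = 0.0288). These 2 members were called lower and none higher, where 5.67% of 20265 genes were called lower. In CPM, both TREAT areas lay below both Vehicle areas for 19.95% of all features and above them for 57.0%. Of all calls 83.7% were lower with TMM scaling and 19.0% with library totals, which moved the median over all genes from 0.13 to 0.47. The other log2 fold changes were -0.97 ± 0.32 for Hsp90b1, -0.76 ± 0.31 for Pdia4, -0.64 ± 0.29 for Calr, -0.53 ± 0.23 for Herpud1, -0.34 ± 0.22 for Xbp1 and 0.13 ± 0.31 for Dnajb9, with edgeR adjusted p-values from 0.0771 to 0.744. Core spots were 30.1% and 37.8% of the kept spots in Vehicle and 5.76% and 18.5% in TREAT, and their part in the whole-tissue differences was not tested. Both calls were lost without either Vehicle area, and that of Hspa5 also without TREAT 1+4 (edgeR adjusted p = 0.0639). With library totals Hspa5 was not called (edgeR adjusted p = 0.057). When genes under 10 CPM were left out, none of the 11290 genes tested was called, no member among them.

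Some other genes of the pathway were called lower over the whole tissue and none higher. The counts that follow include the members, and Hspa5 and Sdf2l1 are both among the chaperones called. Against the 5.67% of all genes called lower, the counts were 5 of 20 chaperones, 2 of 13 oxidoreductases, 1 of 18 degradation genes, 2 of 12 sensors and factors, 7 of 16 Perk and Atf4 targets, 6 of 23 translocation genes, 0 of 14 cytosolic heat shock genes and 2 of 10 mitochondrial genes. Atf5, a factor related to Atf4, had a log2 fold change of -2.90 ± 0.25 (edgeR adjusted p = 0.0183). That of Sec61b, a translocon subunit, was -2.12 ± 0.33, of Sesn2 -1.98 ± 0.27, of Serpinh1 -1.97 ± 0.32, of Kdelr2, a retrieval receptor, -1.80 ± 0.32 and of Chac1, which degrades glutathione, -1.76 ± 0.25 (edgeR adjusted p of 0.0288 to 0.0332). Among further genes with the smallest p of their lists, Fkbp11, Hyou1, Pdia5, Pdia3, Aup1, Ern1, Atf4, Ssr2, Lonp1 and Hspe1 also passed, with log2 fold changes from -1.55 to -1.13. Prdx4, Edem2, Derl2, Ddit3, Hspb8, Hspa1a, Hsph1 and Hspd1 did not pass, with edgeR adjusted p-values from 0.053 to 0.0999. With genes under 10 CPM left out, no gene of any list was called, and neither was any other of the 11290 genes tested.

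Within the core, TREAT (cluster 6) was compared with Vehicle (cluster 0). The median core spot held 32622 and 36102 UMIs in TREAT and 21204.5 and 22099 UMIs in Vehicle. Depth and group therefore cannot be told apart in the core. Sdf2l1 and Herpud1 were lower in both TREAT cores, at the CPM given above, with log2 fold changes of -1.43 ± 0.18 (edgeR adjusted p = 1.33e-05) and -1.36 ± 0.18 (edgeR adjusted p = 2.1e-05). The groups did not overlap, and in CPM both TREAT cores lay below both Vehicle cores for 14.4% of all features. By piece of tissue, Sdf2l1 held 153 to 201 CPM in the 4 Vehicle cores and 84.2 to 95.6 CPM in the 3 TREAT cores, and Herpud1 88.6 to 107 CPM and 50.5 to 66.7 CPM. Hspa5 was lower as well (log2 fold change -0.86 ± 0.20, edgeR adjusted p = 0.00275), at 1731 to 1984 CPM in the Vehicle pieces and 1260 to 1488 CPM in the TREAT pieces. The 3 calls compare with 20.2% of 19544 genes called lower. Of all calls 62.8% were lower with TMM scaling and 15.4% with library totals.

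The other 5 members were not called in the core (edgeR adjusted p from 0.129 to 0.764). Their direction depended on the scaling. The TMM factors, which are set on the bulk of genes, gave log2 fold changes of -0.34 for Xbp1, -0.30 for Calr, -0.29 for Hsp90b1, -0.12 for Dnajb9 and -0.08 for Pdia4. Scaled to library totals, as CPM is, they were 0.13, 0.17, 0.18, 0.35 and 0.39, and the median over all genes moved from 0.04 to 0.50. Calr and Pdia4 accordingly had higher CPM in both TREAT cores than in both Vehicle cores, as did 61.5% of all features. Sdf2l1 and Herpud1 were called lower under that scaling too (-0.96 ± 0.16 and -0.89 ± 0.16, edgeR adjusted p = 0.00203 and 0.00285). Hspa5 was not (-0.40 ± 0.19, edgeR adjusted p = 0.0925), nor with genes under 10 CPM left out (-0.49 ± 0.17, edgeR adjusted p = 0.0629) or without Vehicle 1+4 (-0.81, edgeR adjusted p = 0.0647).

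Ratios between members within a core do not depend on the scaling. The pairs were chosen after their values were seen, so they describe the fold changes above in another form and are no further support. The ratio of Sdf2l1 to Pdia4 counts was 0.718 and 0.629 in the Vehicle cores and 0.242 and 0.286 in the TREAT cores. That of Herpud1 to Pdia4 was 0.40 and 0.37 in Vehicle and 0.151 and 0.165 in TREAT, and that of Hspa5 to Hsp90b1 was 0.870 and 0.817 in Vehicle and 0.505 and 0.658 in TREAT. Each of the 3 ratios was lower in both TREAT cores.

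**Figure D5:**
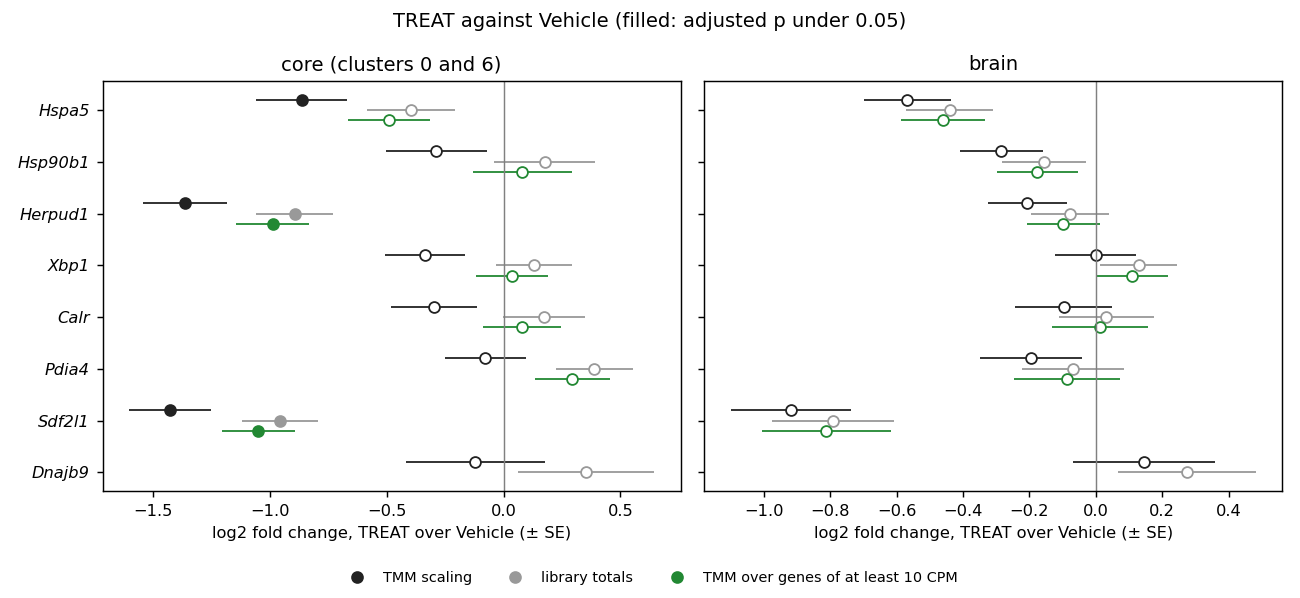
Log2 fold change of TREAT over Vehicle, with SE, for each gene in the core (clusters 0 and 6) and in brain, under TMM scaling, library totals and TMM over genes of at least 10 CPM; filled points passed an edgeR adjusted p of 0.05. In the core Herpud1 and Sdf2l1 are filled under all 3 and Hspa5 under TMM alone, and no point is filled in brain. Dnajb9 has no value in the third fit.

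Counts of list genes called lower in the TREAT core moved with the scaling, and no test of a list was run. The counts include the called members, with Hspa5 and Sdf2l1 on the chaperone list and Herpud1 on the degradation list. With TMM scaling, against 20.2% of all genes, there were 9 of 20 chaperones, 4 of 13 oxidoreductases, 11 of 18 degradation genes, 7 of 12 sensors and factors, 12 of 16 Perk and Atf4 targets, 12 of 23 translocation genes (with 2 higher), 1 of 14 cytosolic heat shock genes and 4 of 10 mitochondrial genes. With library totals, where 1387 of 19544 genes were called lower, these became 4, 1, 5, 1, 6, 4, 1 and 2 in the same order. The 5 genes that follow were called lower under both. Atf5 held 269 and 200 CPM in Vehicle and 41.5 and 45.9 CPM in TREAT (log2 fold change -2.89 ± 0.20), Sec61b 528 and 478 CPM against 188.5 and 239 CPM (-1.70 ± 0.19), and Kdelr2 552 and 598 CPM against 197.5 and 298 CPM (-1.68 ± 0.20). Chac1 held 82.3 and 79.9 CPM against 38.5 and 39.8 CPM (-1.52 ± 0.18), and Pdia3 1602 and 1599 CPM against 550 and 1024 CPM (-1.495 ± 0.23). The edgeR adjusted p-values of these 5 were 1.03e-04 or below. Ddit3 was called lower with TMM (-0.59 ± 0.17, edgeR adjusted p = 0.0152) while its CPM was 196 and 218 in Vehicle and 214 and 240 in TREAT. Proliferation genes summed to 3217 and 3190 CPM in the Vehicle cores and 3494 and 3048 CPM in the TREAT cores, and macrophage genes to 1670 and 1972 CPM and to 1636 and 1697 CPM, so neither list separated the groups. Other lists did, among them endothelial genes (262 and 268 CPM in Vehicle, 184 and 254 CPM in TREAT), hypothalamic genes (126 and 122 CPM, 206 and 198 CPM), ependyma and choroid plexus genes (63.8 and 53.3 CPM, 176 and 132 CPM) and striatal genes (28.7 and 35.4 CPM, 54.8 and 54.1 CPM). The part of these in the core values was not tested.

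In cluster 7 no member was called between TREAT and Vehicle by edgeR, where 1.03% of 13964 genes were called. At an unadjusted p under 0.05 there were 2, Sdf2l1 (-0.60 ± 0.19, adjusted p = 0.135) and Hspa5 (-0.44 ± 0.19, adjusted p = 0.256), and DESeq2 called none. Sdf2l1 held 155 and 187 CPM in Vehicle and 125 and 111 CPM in TREAT. The log2 fold changes of the others were 0.83 for Dnajb9, 0.29 for Pdia4, 0.01 for Hsp90b1, -0.04 for Xbp1, -0.10 for Calr and -0.31 for Herpud1. Plasma cell genes differed here, at 3380 and 2380 CPM in Vehicle and 1099 and 436 CPM in TREAT, as did, among others, white matter genes, at 7800 and 8356 CPM in Vehicle and 21340 and 15395 CPM in TREAT, and endothelial genes, at 680 and 494 CPM and 352 and 387 CPM. The part of these lists in the cluster 7 values was not tested.

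In brain edgeR called 0% of 19094 genes between TREAT and Vehicle, no member among them, with 3950 genes at an unadjusted p under 0.05. The 2 members at such a p were Sdf2l1 (-0.92 ± 0.18) and Hspa5 (-0.57 ± 0.13), both with an edgeR adjusted p of 0.151. Their CPM in both TREAT brains lay below both Vehicle brains, as did that of 14.6% of all features. The brain class held different clusters in the areas. Cluster 14, matched by striatal genes, had 0 and 1 spots in Vehicle and 205 and 155 in TREAT, cluster 15, matched by thalamic genes, had 178 of its 179 spots in TREAT 2+3, and cluster 8, matched by hypothalamic genes, had 484 spots in TREAT 1+4 and 6 in TREAT 2+3. Striatal genes summed to 317 and 322 CPM in the Vehicle brains and 1026 and 1055 CPM in the TREAT brains. DESeq2 called both lower, where it called 4.87% of 12901 genes lower. The log2 fold changes of the others were -0.28 for Hsp90b1, -0.21 for Herpud1, -0.20 for Pdia4, -0.10 for Calr, -0.00034 for Xbp1 and 0.14 for Dnajb9 (edgeR adjusted p of 0.256 or above). Proliferation genes summed to 143 and 267 CPM in the Vehicle brains and 75.7 and 167 CPM in the TREAT brains. The part of these lists and of the make-up of the class in these values was not tested. When an area was left out, edgeR's log2 fold change ran from -0.66 to -0.50 for Hspa5 and from -1.10 to -0.75 for Sdf2l1.

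Whether the difference between the groups was itself different in core and brain was tested as an interaction. Herpud1 was the 1 member called (log2 difference -0.92 ± 0.20, edgeR adjusted p = 0.0465), where 0.359% of 19763 genes were called in that direction. The ratio of its core to its brain CPM was 0.88 and 0.82 in Vehicle and 0.46 and 0.50 in TREAT. Its level differed among brain clusters, from means of 69.8 CPM in a hippocampal cluster to 193 CPM in a thalamic one, and the brain class was made up differently in the areas, as given above. The part of that make-up in the interaction was not tested. The call was lost without Vehicle 1+4 (edgeR adjusted p = 0.473) or Vehicle 2+3 (0.225), and with library totals (0.057) or genes of at least 10 CPM (0.0672). For Hspa5 and Sdf2l1 the log2 differences were -0.07 ± 0.22 and -0.29 ± 0.22, so the data did not show a lower level of either that was particular to the core. The remaining values were 0.35 for Pdia4, 0.20 for Hsp90b1, 0.04 for Calr, -0.03 for Dnajb9 and -0.11 for Xbp1 (edgeR adjusted p from 0.384 to 0.982).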

How the data were processed

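Whole-number UMI counts per gene and spot were deposited by the authors, and the submitters' processing notes name Space Ranger 2.1.1, Seurat, R 4.4.1 and mm10. Features with a deprecated identifier (304 of 32589) were left out. Spots were clustered with scanpy 1.11.5 (2000 variable genes, 30 components, 15 neighbours, Leiden resolution 0.6), leaving out the members and pathway lists, and a cluster was matched to a list by at least 3 of its 50 leading genes. A spot can hold several cells, so no doublet caller was run. Cluster 11 failed a check of its 10 leading genes and stayed in the brain class as planned.

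Raw counts were summed per area and class and tested with edgeR 4.0.16 (quasi-likelihood, TMM, filterByExpr, Benjamini-Hochberg over all genes, threshold 0.05). Class comparisons used the area as a block. SE is the absolute log2 fold change over the square root of F. The fits were tested on simulated counts.

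The members and lists were chosen with earlier results of these data known. All 8 members are named in each comparison, and of each list up to 3 other genes with the smallest p in core against brain and in the whole tissue. The 6 genes of the TREAT core outside the members were taken from these after their values were seen. Alternatives were DESeq2 1.42.0, other scalings, filters, clusterings, a block for the label number and fits without each area.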

Additional observations from a re-analysis of the deposited data

Results flagged for a closer look

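The difference between TREAT and Vehicle in Herpud1 passed a test of its own between core and brain (log2 difference -0.92 ± 0.20, edgeR adjusted p = 0.0465). The call was lost without Vehicle 1+4 (edgeR adjusted p = 0.473), without Vehicle 2+3 (0.225), with library totals (0.057) and with genes of at least 10 CPM (0.0672). In CPM, Herpud1 was lower in both TREAT cores than in both Vehicle cores, as were 14.4% of all features. Its brain values overlapped between the groups.

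Spots outside the tissue outline also held counts that no comparison used. They carried 3.83% to 5.40% of all UMIs of an area and 9625 UMIs of Hspa5 over the 4 areas, at 704 to 1383 CPM.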

How the results depend on the processing

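Over the members and comparisons, 655 alternative values kept their direction and their side of the threshold, 35 lost a call, 14 gained one and 56 changed direction. Against 2 members lower in the whole tissue, there were 1 with library totals (Sdf2l1), 0 with genes of at least 10 CPM and 0 to 5 when an area was left out. In brain, against none, there were 2 with DESeq2 and 0 to 2 when an area was left out. With genes of at least 10 CPM, where Dnajb9 was not tested, 1 member was lower in the core than in brain and 1 in cluster 7 than in brain. Of all 11383 genes tested in that fit, 4820 were called lower in the core and 4348 in cluster 7. At Leiden resolution 1.0 the class led by reactive glia genes had 2 members higher and 0 lower than brain. Of 17892 genes tested in that fit, 3445 were called higher and 4132 lower. The interaction had 0 members lower with library totals and with genes of at least 10 CPM, and 0 to 1 when an area was left out.

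With the label number as a replicate block, 6 members were lower in the whole tissue and Xbp1 in brain was 0.00043. Only 2 pairs exist. The deviations of same-numbered areas correlated at 0.337 in the whole tissue, 0.075 in the core and 0.0079 in brain, and the numbers are not known to pair the areas.

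Over all genes, 1149 were lower in the whole tissue with edgeR, 2852 with DESeq2, 685 with library totals, 4351 with the replicate block, 0 with genes of at least 10 CPM (4117 at an unadjusted p under 0.05), and 7 to 3561 when an area was left out. In the core 3952 were lower, 1387 with library totals and 1333 with genes of at least 10 CPM. In brain 628 were lower with DESeq2 and 0 in the main edgeR fit. Without TREAT 1+4, and without TREAT 2+3, edgeR did call genes lower there. The interaction had 71 lower, 386 with DESeq2, 1054 with spots of at least 1000 UMIs and 825 with clustering on all genes.

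Log2 values that changed direction were these; none of them was called in the main comparison, and the cause was not tested beyond what the scaling shows. In the core, library totals and genes of at least 10 CPM gave Hsp90b1 0.18 and 0.080, Xbp1 0.13 and 0.035, Calr 0.17 and 0.078 and Pdia4 0.39 and 0.29. Dnajb9 was 0.35 with library totals and -0.41 to 0.21 when an area was left out, and in the whole tissue -0.19 to 0.44. In cluster 7, Hsp90b1 was -0.0062 with DESeq2, -0.016 without a filter, -0.12 at resolution 0.4 and -0.081 to 0.084 when an area was left out. Xbp1 there was 0.018 with library totals, 0.076 at resolution 1.0, 0.038 with clustering on all genes and -0.16 to 0.061 when an area was left out, and Calr 0.072 with spots of at least 1000 UMIs and 0.076 at resolution 1.0. In brain, Xbp1 was 0.13 with library totals, 0.11 with genes of at least 10 CPM, 0.025 with spots of at least 1000 UMIs, 0.016 with clustering on all genes, 0.0096 with cluster 5 added and cluster 11 left out (chosen after seeing the data) and -0.072 to 0.041 when an area was left out. Calr in brain was 0.031 with library totals, 0.012 with genes of at least 10 CPM and -0.26 to 0.054 when an area was left out, and Dnajb9 -0.022 to 0.30.

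In the interaction, library totals gave Hspa5 0.041, Xbp1 0.00029 and Dnajb9 0.087. Leaving out an area gave Hspa5 -0.27 to 0.13, Xbp1 -0.23 to 0.014 and Dnajb9 -0.37 to 0.34. Hsp90b1 was -0.11 with spots of at least 1000 UMIs, -0.0070 at resolution 1.0, -0.048 with clustering on all genes and -0.087 to 0.47 when an area was left out. Calr was -0.022 with DESeq2, -0.022 with DESeq2's size factors in edgeR, -0.23 with spots of at least 1000 UMIs, -0.11 at resolution 1.0, -0.21 with clustering on all genes and -0.22 to 0.30 when an area was left out. Counts of Dnajb9, at most 442 UMIs per class and area, limit its values.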
